A study of Mus musculus and Homo sapiens with 6 samples.

Results

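The proteasome genes examined here were the 50 protein-coding mouse genes whose symbols begin with Psma, Psmb, Psmc, Psmd, Psme or Psmg followed by a digit, out of 21896 protein-coding genes placed on chromosomes in the gene table used. They were followed in the NMuMG line of mouse mammary gland epithelium by ATAC-seq, an assay in which the Tn5 transposase cuts and tags open DNA. The 4 libraries were made from 25000, 50000, 75000 and 100000 cells, 1 library per cell number, and each is represented by a deposited list of peaks in the mm10 build with a whole-number score. All 4 carry the genotype label NMuMG and the time label 0h, and the cells were at low passage in medium with serum, with no treatment named. The labels do not say whether the libraries came from separate cultures, and the series' 2 human libraries (genotype label MDA-MB-231_GATA3) were not analysed here.

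The proteasome is the large protease that degrades proteins marked with ubiquitin. Its 20S core is a barrel of alpha and beta rings, in which Psmb5, Psmb6 and Psmb7 encode the catalytic beta subunits of most cells. The 19S regulatory particle, built from an ATPase ring (Psmc genes) and further subunits (Psmd genes), binds ubiquitin chains and unfolds the substrate. Psmb8, Psmb9 and Psmb10 encode the immunoproteasome subunits that replace the 3 standard catalytic subunits after interferon signals. Psmb11 is the corresponding gene of thymus cortical epithelium, and Psma8 is an alpha subunit gene of male germ cells. Psme genes encode alternative activators of the core, and Psmg genes and some Psmd genes encode chaperones of assembly.

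A gene-end peak, or end peak, below is one that overlaps the 1 kb to either side of either annotated end of a gene. The score comes from the authors, its percentile is its rank within its own list, and 4 scores given in a row run from 25000 to 100000 cells. The lists held 38878, 43832, 41509 and 45530 peaks, with a lowest score of 8 and a median score of 15 or 16 in each. They carry no read counts, so the depth is unknown, and a gene without a listed peak may have signal under a score of 8. The list of 50 includes Psmc3ip and Psme3ip1, which are named for binding a proteasome protein and are not subunits. For the identity of the line, all 5 epithelial marker genes (Cdh1, Krt8, Krt18, Jup and Elf3) had an end peak in all 4 libraries, and neither of the blood markers Ptprc and Cd3e had a peak in or beside the gene. Of the 2 fibroblast markers, Col1a1 had an end peak in all 4 libraries and Pdgfra had peaks only inside the gene.

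The sequences upstream of 7 members show what lay at starts with high-scoring peaks in all 4 libraries (Psma5, Psmb3, Psmc4 and Psmd8). They also show the start of the immunoproteasome gene Psmb9, under a peak that covered the start of its neighbour as well. The starts of Psmb5 and Psmb11 had no peak over them in any library. Each sequence is the 250 bases before the start listed by RefSeq, in GRCm38.p6, 5′ to 3′ on the strand of the gene. Capitals mark CpG dinucleotides.
Psma5, chr3:108256676-108256925, plus strand: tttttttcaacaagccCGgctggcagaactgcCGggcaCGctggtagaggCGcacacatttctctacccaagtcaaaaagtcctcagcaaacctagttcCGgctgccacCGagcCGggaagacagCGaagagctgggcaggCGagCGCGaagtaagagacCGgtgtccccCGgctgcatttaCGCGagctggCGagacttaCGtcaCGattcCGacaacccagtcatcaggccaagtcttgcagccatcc
Psmb3, chr11:97703184-97703433, plus strand: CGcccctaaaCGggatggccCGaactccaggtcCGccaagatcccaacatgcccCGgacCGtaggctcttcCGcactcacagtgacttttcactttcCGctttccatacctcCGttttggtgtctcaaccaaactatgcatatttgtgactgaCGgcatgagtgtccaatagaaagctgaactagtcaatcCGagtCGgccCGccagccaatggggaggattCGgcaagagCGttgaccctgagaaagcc
Psmc4, chr7:28050093-28050342, minus strand: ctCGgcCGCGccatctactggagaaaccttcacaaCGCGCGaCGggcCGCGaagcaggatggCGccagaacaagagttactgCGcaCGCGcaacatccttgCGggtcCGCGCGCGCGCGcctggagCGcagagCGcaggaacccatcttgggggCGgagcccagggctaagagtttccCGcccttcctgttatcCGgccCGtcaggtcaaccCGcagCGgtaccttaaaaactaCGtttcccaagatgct
Psmd8, chr7:29180674-29180923, minus strand: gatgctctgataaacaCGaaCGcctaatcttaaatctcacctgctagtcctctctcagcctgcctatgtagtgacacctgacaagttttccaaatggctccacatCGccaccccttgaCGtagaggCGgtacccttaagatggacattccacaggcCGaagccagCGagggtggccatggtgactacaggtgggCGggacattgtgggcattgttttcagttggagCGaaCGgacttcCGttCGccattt
Psmb9, chr17:34187331-34187580, minus strand: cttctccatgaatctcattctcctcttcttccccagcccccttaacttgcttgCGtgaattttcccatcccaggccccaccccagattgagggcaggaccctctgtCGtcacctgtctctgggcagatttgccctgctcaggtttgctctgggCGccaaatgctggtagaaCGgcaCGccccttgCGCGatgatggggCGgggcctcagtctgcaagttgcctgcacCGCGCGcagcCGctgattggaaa
Psmb5, chr14:54617996-54618245, minus strand: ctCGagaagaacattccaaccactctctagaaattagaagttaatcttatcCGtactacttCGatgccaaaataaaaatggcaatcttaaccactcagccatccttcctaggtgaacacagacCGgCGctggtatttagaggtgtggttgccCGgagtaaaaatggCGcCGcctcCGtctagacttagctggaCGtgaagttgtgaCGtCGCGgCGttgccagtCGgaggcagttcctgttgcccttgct
Psmb11, chr14:54625060-54625309, plus strand: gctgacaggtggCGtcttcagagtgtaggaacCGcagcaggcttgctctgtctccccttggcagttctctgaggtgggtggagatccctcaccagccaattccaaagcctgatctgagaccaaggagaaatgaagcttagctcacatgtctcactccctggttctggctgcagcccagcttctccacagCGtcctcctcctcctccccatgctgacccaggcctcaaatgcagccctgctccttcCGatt
These stretches held 19 CpG at Psma5, 15 at Psmb3, 29 at Psmc4, 12 at Psmd8, 12 at Psmb9, 15 at Psmb5 and 4 at Psmb11. Psmb5, with no listed peak, thus carried as many CpG as Psmb3, with a high one.

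Most proteasome genes had an open region at an end in every library. An end peak was present in all 4 libraries at 40 of the 50 members (80%), where 43.9% of all protein-coding genes had one. A further 5 members (10%) had one in 1 to 3 libraries, compared with 8.78% of all genes. With peaks inside the gene or within 1 kb of it, 44 members (88%) had a peak in all 4 libraries, against 54.5% of all genes, and 4 members (8%) had none in any library, against 35.8%. The background includes many genes that are silent in any single cell type, and no test of the difference was made. By library, 43, 44, 43 and 43 of the 50 members had an end peak, against 46.9%, 48.9%, 48.4% and 49.5% of all protein-coding genes. The count of members differed by at most 1 gene between cell numbers, and the share of all genes also varied little.

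The members' peaks ranked below those of other genes with such peaks. For genes with an end peak in all 4 libraries, the score percentile of the highest-scoring gene-end peak, averaged over the libraries, had a median of 70.9% for the 40 members (quartiles 59.4% and 85%) and of 79.3% for all 9610 genes (63% and 91.1%). The median scores of the members were 20.5, 28, 25 and 29, and those of all genes were 27, 35, 32 and 37. The members lay below all genes in each library. When only peaks at or above the median score of their list were kept, 29 members (58%) still had an end peak in all 4 libraries, against 33.1% of all genes. The 11 that were lost were the core gene Psma1, the ATPase genes Psmc1, Psmc2, Psmc5 and Psmc6, the regulatory particle genes Psmd1 and Psmd6, the activator gene Psme3, the assembly genes Psmg1 and Psmd10, and the immunoproteasome gene Psmb8.

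**Figure D1:**
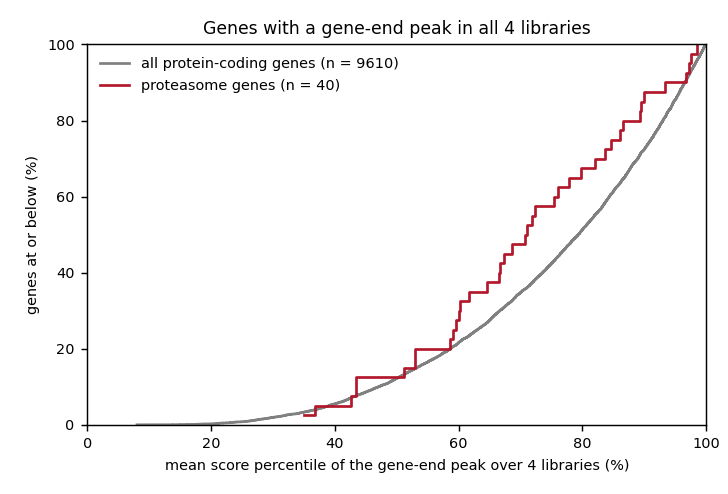
Cumulative share of genes (y axis, %) by the mean score percentile of their gene-end peak over 4 libraries (x axis, %), for the 40 proteasome genes and all 9610 protein-coding genes with such a peak in all 4 libraries. The line of the proteasome genes lies to the left of that of all genes through most of the range, with medians of 70.9% and 79.3%.

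**Figure D2:**
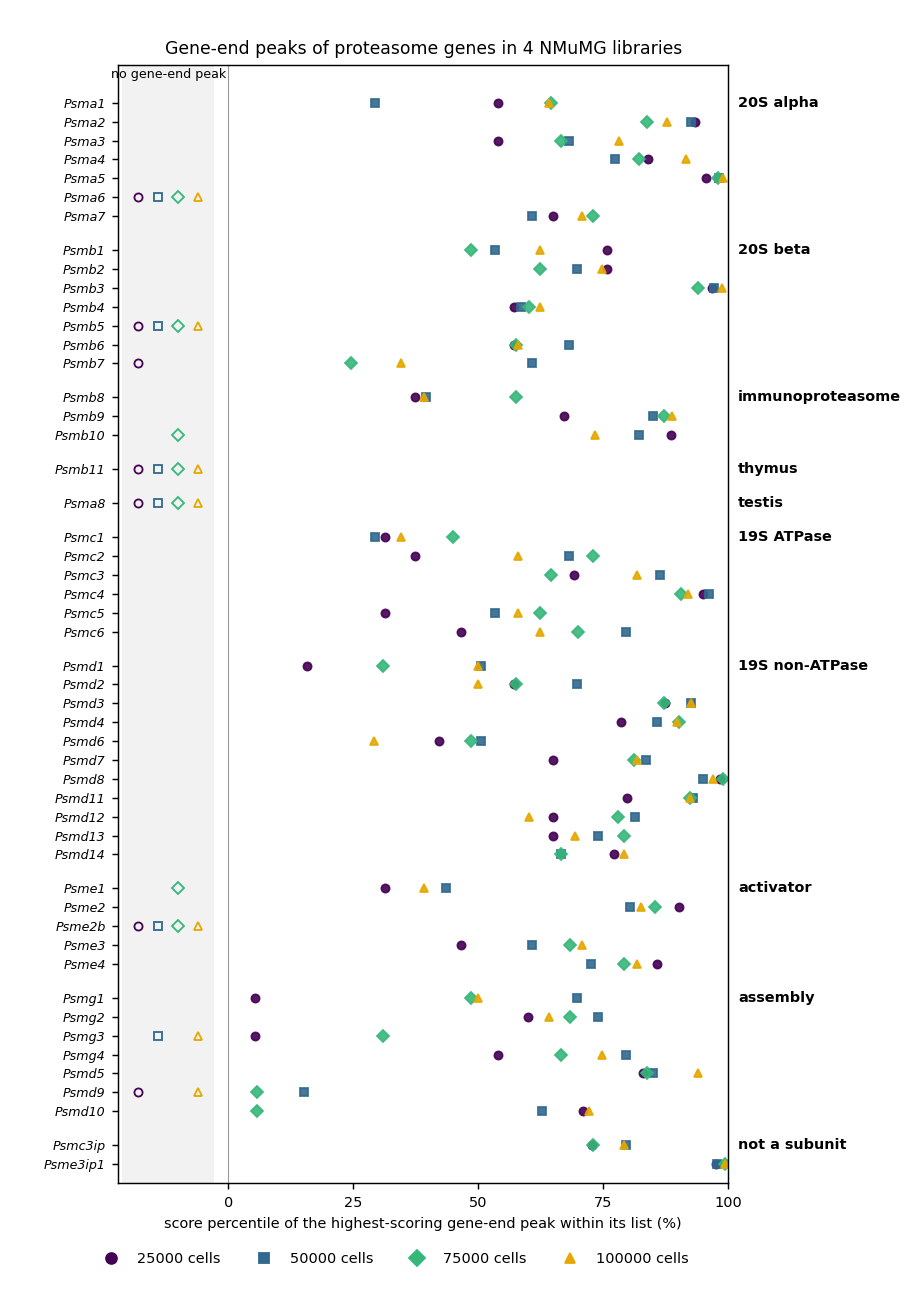
Score percentile within its list (x axis, %) of the highest-scoring gene-end peak of each of the 50 members (y axis, by class), 1 symbol per library. Open symbols in the grey band mark libraries without an end peak: Psma6, Psmb5, Psmb11, Psma8 and Psme2b had none in any of the 4.

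Scores ranged widely among the 20S core genes. Among the 7 alpha subunit genes, 6 had an end peak in all 4 libraries. Psma5 had the highest scores of this class, at 56, 87, 79 and 101, and its mean percentile exceeded that of 93.2% of all genes with an end peak in all 4 libraries. Psma2 followed with scores of 49, 56, 36 and 45, and in each library its peak covered both its own start and that of the mitochondrial ribosomal protein gene Mrpl32, 205 bp away on the other strand. Psma4 scored 33, 31, 34 and 53. Psma1 (16, 11, 21 and 22) and Psma3 (16, 24, 22 and 32) were the lowest of the class. The gene-end peaks of Psma3 lay upstream, at the outer end of its annotated span, while a separate peak inside the gene covered its listed start with scores of 25, 39, 27 and 33.

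Psma6, the remaining alpha subunit gene, had only internal peaks. One over its second listed start (55398825 on chromosome 12) scored 24, 44, 46 and 49, while its first listed start had none within 1 kb. Another, centred 9200 to 9250 bp beyond the second start, scored 27, 27, 39 and 38. All 7 alpha subunit genes therefore had a peak within 1 kb of a listed start in all 4 libraries. Psma7 scored 20, 20, 26 and 26 at a start that lies 19 bp from that of Ss18l1, a gene on the other strand, and its peak was nearer to Ss18l1 in 3 libraries.

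Of the 7 standard beta subunit genes, 5 had an end peak in all 4 libraries. Psmb3, a structural subunit gene, had the highest scores, at 62, 78, 56 and 98, followed in mean percentile by Psmb2 with 26, 25, 20 and 29. The lowest in mean percentile were Psmb4 (17, 19, 19 and 21) and Psmb1 (26, 17, 15 and 21). The 3 catalytic genes differed from one another. Psmb6 had an end peak in all 4 libraries, with scores of 17, 24, 18 and 19. Psmb7 had none at 25000 cells and peaks of 20, 10 and 12 at its upper end in the other libraries, with internal peaks of 20, 13 and 16 at 22202 to 22327 bp from that end in the 3 smaller libraries. Psmb5 had no peak at all, in the gene or within 1 kb of it, in any of the 4 lists.

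The absence of a listed peak at Psmb5, which encodes the chymotrypsin-like catalytic subunit, stood beside a start rich in CpG. The gene spans 54614120 to 54617995 on chromosome 14, and the nearest listed peak lay between 7.92 and 10.5 kb from it, depending on the library. Its 300-base promoter window (250 bases before to 50 after the start) had a ratio of observed to expected CpG of 0.999, the third highest of the 46 member windows. Of all promoter windows with a ratio from 0.8 to 1, 79.7% had a peak within 1 kb of their start in all 4 libraries, and 13 of the 14 member windows in that range did, Psmb5 being the exception. A pseudogene, Psmb5-ps, is annotated elsewhere, and how reads matching both were placed is not given here. Psmb11, the thymus gene and neighbour of Psmb5, starts 7315 bp away and also had no peak in any library.

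**Figure D3:**
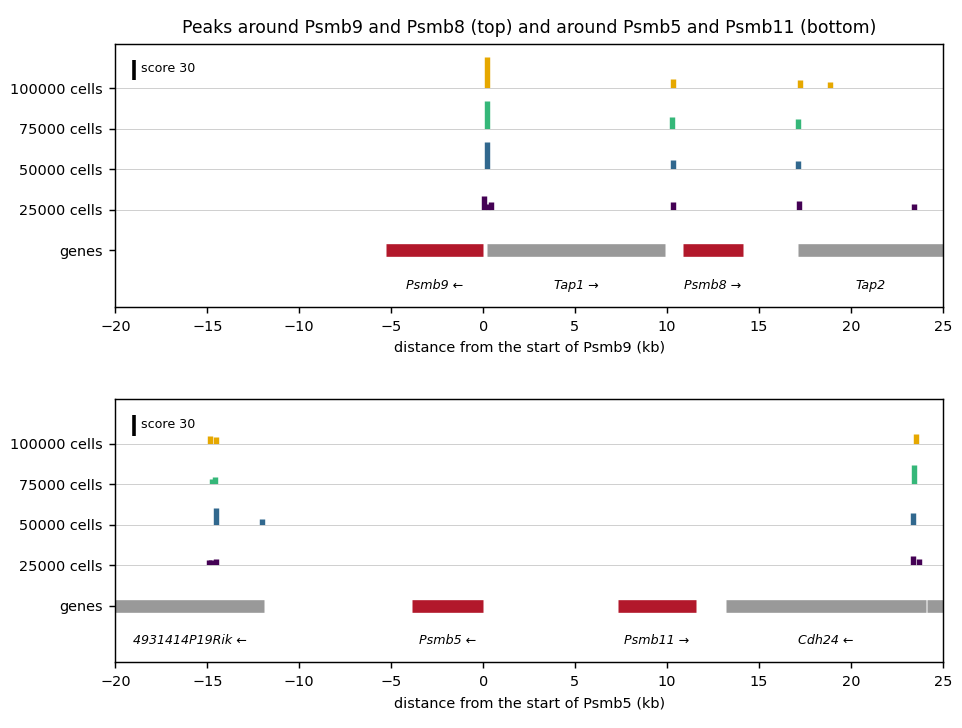
Peaks in the 4 libraries around the start of Psmb9 (top) and of Psmb5 (bottom), with distance from that start in kb on the x axis, bar height proportional to the score, genes as boxes (proteasome genes in red) and arrows for the listed strand. A peak lies between Psmb9 and Tap1 in each library, and none lies in or beside Psmb5 or Psmb11.

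The immunoproteasome genes all had a peak inside them or within 1 kb in every library, but not in the same place relative to their starts. Psmb9 and the peptide transporter gene Tap1 start 226 bp apart on opposite strands on chromosome 17, and a peak covered the Psmb9 start in each library with scores of 21, 40, 41 and 47. In all 4 libraries that peak also covered the start of Tap1. In the 3 larger libraries it was 850 or 900 bp wide, at 34187101 to 34188000 at 100000 cells. At 25000 cells the same stretch held 3 overlapping peaks with scores of 21, 9 and 11. The mean percentile at Psmb9 was 82.1%, against the median of 79.3% for all genes.

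At Psmb8 the peak was weak and lay off the start. It scored 12, 13, 18 and 13, at 34197401 to 34197900 in 3 of the libraries, and its centre was at -570 to -545 bp from the Psmb8 start, upstream of it. That position is nearer to the end of Tap1, which lies 970 bp from the Psmb8 start, and in no library did a peak cover the Psmb8 start itself. At Psmb10, on chromosome 8 at 105935728 to 105938392, the main peak lay inside the gene, with its centre 1267 to 1367 bp downstream of the start and scores of 39, 36, 13 and 28. Since the gene is 2665 bp long, that internal peak reached the window of a gene end in 3 libraries and not at 75000 cells. The only other peak at Psmb10 had a score of 8, at 50000 cells, with its centre 192 bp downstream of the start, which it did not cover. Its promoter window held 3 CpG, a ratio of 0.192.

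Genes that work with the immunoproteasome in antigen processing had such peaks as well. Tap1, Tap2, Tapbp, Erap1, B2m, Nlrc5, Irf1, H2-K1 and H2-D1 each had an end peak in all 4 libraries. Among all protein-coding genes, the share was 43.9%. The highest-scoring end peak of Tap1, with scores of 21, 40, 41 and 47, is the peak already described at Psmb9. Tap1 therefore adds no separate peak to that of Psmb9. Tapbp, which encodes tapasin, scored 52, 52, 34 and 51, and B2m, which encodes the light chain of MHC class I, 33, 50, 55 and 57. Tap2 scored 13, 12, 15 and 12. No interferon treatment is named for any of the libraries.

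The members tied to other tissues had no peaks. Psma8, on chromosome 18 at 14706135 to 14762301, had no peak in the gene or within 1 kb, and the nearest listed peak was 20.4 to 20.5 kb away. Psmb11, on chromosome 14 at 54625310 to 54629556, had its nearest listed peak 11.5 to 11.6 kb away, and its promoter window had a CpG ratio of 0.165. Of 5 germ cell markers, Ddx4, Dazl, Sycp1 and Sycp3 had no peak either, while Stra8 had only internal peaks, with scores of 8, 10, 11 and 8. Of 3 markers of thymus cortical epithelium, Ly75 had an end peak in all 4 libraries (15, 40, 17 and 28), Foxn1 had only internal peaks (42, 34, 44 and 43), and Prss16 had internal peaks in the 3 larger libraries (14, 14 and 9). Some genes of these lists thus had open regions, unlike Psmb11 and Psma8.

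All 17 Psmc and Psmd genes classed here as subunits of the 19S regulatory particle had an end peak in all 4 libraries. Of all protein-coding genes, 43.9% had one. Adrm1, a gene of this particle outside the naming rule, is given with the partners below. Among the 6 ATPase genes, Psmc4 had the highest scores, at 54, 72, 47 and 54, and Psmc3 followed with 22, 42, 21 and 36. Psmc1 had the lowest mean percentile of all 40 members, with scores of 11, 11, 14 and 12, a level that 3.36% of all genes with an end peak in all 4 libraries fell below. Psmc6 scored 14, 33, 24 and 21. Psmc5 (11, 17, 20 and 19) was the next lowest of the class and starts 101 bp from the divergent gene Ftsj3, to which its peak was nearer in the 3 larger libraries. Psmc2 had a pair of peaks, 1 at each of its listed starts. The outer one scored 12, 24, 26 and 19 and lay nearer to the end of the neighbour Dnajc2, and the inner one scored 11, 26, 14 and 26.

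Among the 11 non-ATPase genes, Psmd8, a lid subunit gene, had the highest scores, at 73, 65, 93 and 77, with a mean percentile above that of 92.3% of the genes it was ranked among. Psmd3, another lid subunit gene, scored 37, 56, 41 and 56. The lowest were Psmd1, the gene of a large scaffold subunit of the base, with 9, 16, 11 and 16, and Psmd6, with 13, 16, 15 and 11. At Psmd1 the highest-scoring peak was 306 bp downstream of the start at 25000 cells and 6 bp from it at 50000 cells. Psmd2, Psmd4, Psmd7, Psmd11, Psmd12 and Psmd14 scored between 16 (Psmd2 at 100000 cells) and 57 (Psmd11 at 50000 cells). Psmd13 had 2 peaks in each library, of which the one at the start scored 20, 28, 31 and 25 and was nearer to the start of Sirt3, a mitochondrial deacetylase gene that diverges from it at 85 bp. The mean percentiles of this class thus ran from 36.8% to 97.3%, and those of the ATPase class from 35% to 93.4%.

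The activator genes fell into separate patterns. Psme2, which encodes the beta chain of the interferon-induced 11S activator, had end peaks of 42, 34, 38 and 37. In the 3 smaller libraries a peak at its own start scored 35, 33 and 32 and the slightly higher one beside it was nearer to Rnf31, whereas at 100000 cells a single peak of 1150 bp covered the starts of both genes. Psme1, the gene of the partner alpha chain, had weak peaks of 11, 14 and 13 and none at 75000 cells. Psme4, which encodes the PA200 activator, scored 35, 27, 31 and 36, and Psme3, the gene of a nuclear activator, 14, 20, 23 and 26. Psme2b, a gene of 1066 bp on chromosome 11, had no peak, and the nearest one was 30.5 to 36.6 kb away.

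The assembly genes included the members with the widest spread between libraries. Psmd5, a chaperone gene of the ATPase ring, scored 32, 40, 36 and 61, and Psmg4 scored 16, 33, 22 and 29. Psmg1 (8, 25, 15 and 16) and Psmd10, which encodes gankyrin (23, 21, 8 and 27), were the lowest with a peak in all 4 libraries. Their percentiles spread over 64.4 and 66.5 points between libraries, the widest among the 40 members, whose median spread was 14.1 points against 13.9 for all genes. Psmg2 scored 18, 28, 23 and 22 in a peak nearer to the neighbour Cep76. Psmg3 had peaks of 8 at 25000 and 11 at 75000 cells only. Psmd9 had end peaks of 9 at 50000 and 8 at 75000 cells, and an internal peak 17410 to 17510 bp beyond its start with scores of 15, 10 and 18 at 25000, 50000 and 100000 cells.

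The members that are not subunits also had peaks. Psme3ip1 had the highest mean percentile of the 40 members, 98.5%, with scores of 66, 83, 103 and 117, in a peak over a start that lies 215 bp from that of the divergent gene Rspry1 and nearer to it. Psmd8 scored higher at 25000 cells and Psma5 at 50000 cells. Psmc3ip, a gene of meiotic recombination, scored 24, 33, 26 and 33. Without these genes, 38 of 48 members had an end peak in all 4 libraries, against 43.9% of all protein-coding genes.

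Most peaks near a listed start lay over it. RefSeq listed starts for 42 members, and 35 of these (83.3%) had a peak within 1 kb of one in all 4 libraries, compared with 45.9% of all protein-coding genes with a listed start. Psma8, Psmb1, Psmb2, Psmb7, Psmc3, Psmd3, Psmd7 and Psmg2 were not among the 42. Taking for each gene the highest-scoring peak with its centre within 1500 bp of a start, 34 of 38, 35 of 38, 35 of 38 and 35 of 37 had the centre within 250 bp, and the median distance was 71, 63, 86 and 75 bp. The peak covered the start itself in 33, 35, 34 and 35 genes. These distances were taken for the members only, so that no share of all genes stands beside them. Psmb8, Psmb10 and Psme2 were the genes with the largest distances, as the plot of peak positions shows.

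**Figure D4:**
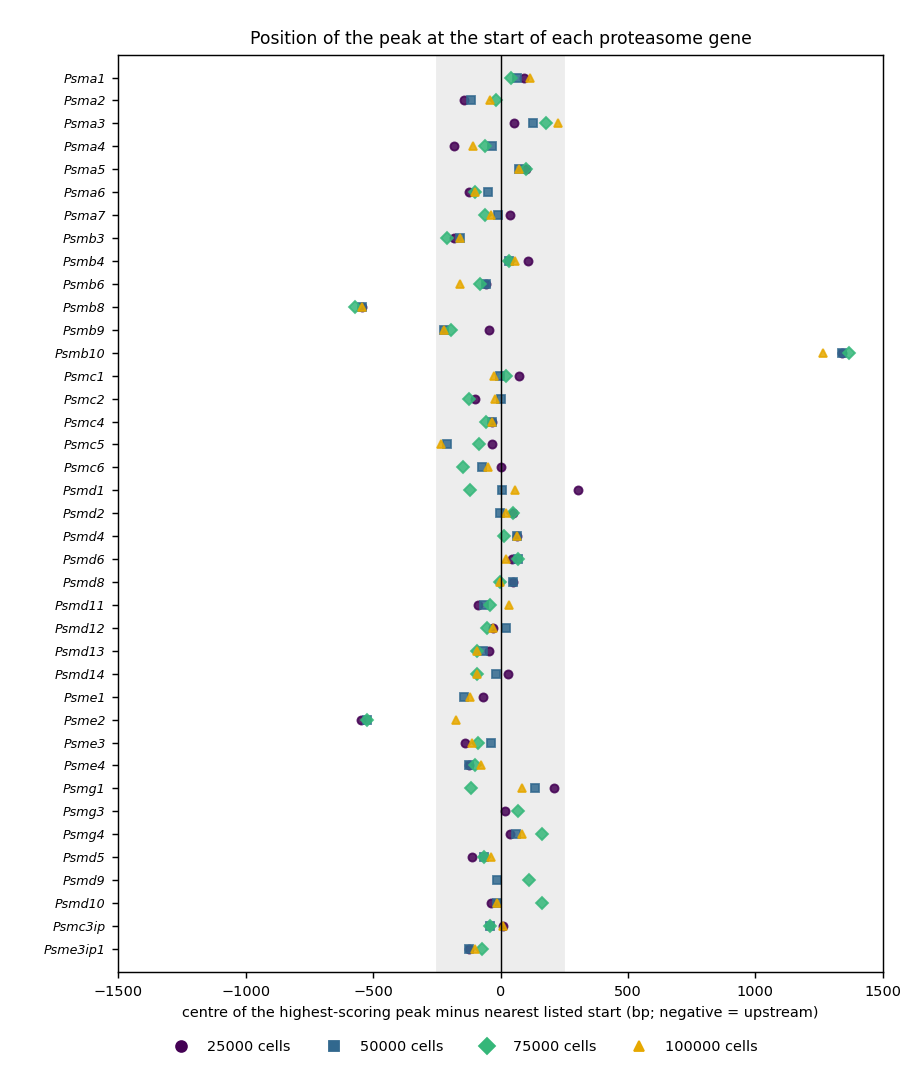
Distance in bp (x axis, negative values upstream) from the nearest listed start to the centre of the highest-scoring peak near it, for each member with a listed start and a peak (y axis), 1 symbol per library. Most symbols lie in the grey band of 250 bp to either side of the start; Psmb8 lies upstream of it and Psmb10 downstream.

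A listed start of another protein-coding gene on the other strand lay within 1 kb for 8 of the 42 members (19%). The share was 9.61% of all protein-coding genes with a listed start. In both sets, partners without a listed start of their own were not counted, so that further divergent pairs may exist. The 8 members were Psma2, Psma7, Psmb9, Psmc5, Psmd10, Psmd13, Psme2 and Psme3ip1, whose partners were Mrpl32, Ss18l1, Tap1, Ftsj3, Atg4a, Sirt3, Rnf31 and Rspry1. When an end peak was counted only if its centre was nearer to the member than to any other protein-coding gene, 31 of the 40 remained. The share of all genes that would remain is not given here, so that this loss cannot be called particular to the members. A peak between divergent starts cannot be assigned to either gene from these lists.

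The base composition of the windows at listed starts differed between members with and without peaks. The 37 member windows with a peak within 1 kb in all 4 libraries had ratios of observed to expected CpG from 0.456 to 1.12, with a median of 0.781, close to the 0.803 of all 9471 promoter windows with such peaks. The 9 member windows with a peak in 0 to 3 libraries had a median of 0.192. They include 1 start each of Psma6 and Psme3ip1, genes with a peak at their other start in all 4 libraries. Among the others, Psmb10 and Psme1 had a peak in 3 libraries, and Psmd9 and Psmg3 in 2. The members with a listed start and no peak in any library were Psmb5 (0.999), Psmb11 (0.165) and Psme2b (0.0904). All windows with no peak in any library, a stricter set, had a median of 0.245. In the range from 0.4 to 0.6, 8 of 10 member windows had a peak in all 4 libraries, against 41% of all windows, and from 0.6 to 0.8 it was 14 of 15 against 68%. Below 0.2 it was 0 of 5, against 4.39%. Those 5 windows belong to Psmb10, Psmb11, Psme2b, the outer start of Psma6 and the inner start of Psme3ip1. In each range from 0.4 up, the member windows had peaks more often than all windows, although most ranges hold few members and the shares were not tested.

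**Figure D5:**
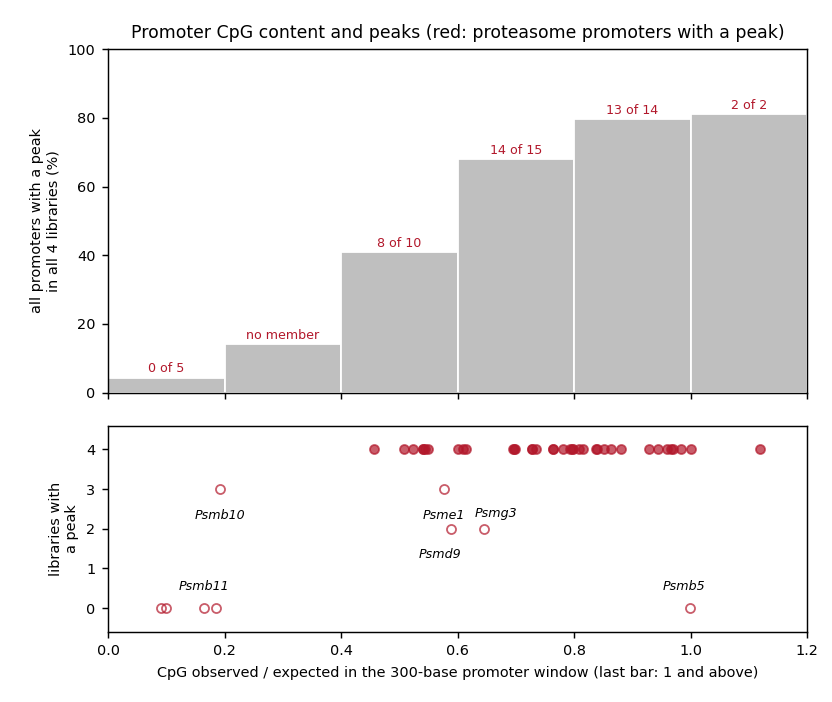
Top, share of all promoter windows with a peak in all 4 libraries (y axis, %) by ratio of observed to expected CpG (x axis), with the count of proteasome windows above each bar; bottom, number of libraries with a peak (y axis) for each of the 46 proteasome windows. Psmb5, with a ratio of 0.999 and no peak in any library, stands apart from the other CpG-rich windows.

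Short motifs in the same windows were counted on both strands. The ETS site CCGGAAG was found in 17 of the 46 member windows (37%), against 11.6% of all 21262 promoter windows. Among windows with a peak in all 4 libraries, it was in 16 of 37 (43.2%), against 20.9% of all. Its holders included the ATPase genes Psmc1, Psmc2 and Psmc6, with both windows of Psmc2. The regulatory particle genes Psmd2, Psmd4, Psmd6, Psmd11, Psmd12 and Psmd13 held it as well. So did Psme3, Psme4, Psmg1 and Psmg3, and also Psmc3ip and Psme3ip1, which are not subunits. Among genes of the 20S core with a window, Psma6 was its only holder. The core genes Psmb1, Psmb2 and Psmb7 and the regulatory particle genes Psmc3, Psmd3 and Psmd7 have no listed start and were not searched. The core of the antioxidant response element (TGACNNNGC), the site of the factors NFE2L1 and NFE2L2 that are known to control proteasome genes, was in 6 windows (13%), as in 13% of all windows. Among windows with a peak in all 4 libraries, it was in 4 of 37 (10.8%), against 15% of all. The 6 windows belong to Psmb5, Psmb6, Psmc6, Psmd9, Psmd12 and Psme4. In Psmb5 the match began 47 bases before the start.

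For each of the other motifs, the share of all member windows is given first, and then the share of those with a peak in all 4 libraries. The GC box GGGCGG was in 54.3% of member windows against 46.2% of all, but in 62.2% against 69.7% of windows with a peak. The TATA box (TATAAA) was in 8.7% against 12.6%, and in 10.8% against 5.72% with a peak. Both member shares are the same 4 windows, in which the matches began at -237 to -76 bases from the start. The direction of the difference thus turned for both when windows with a peak were compared, for the TATA box on only 4 windows. The CCAAT box (CCAAT) was in 34.8% against 38.2%, and in 37.8% against 39.4% with a peak. The AP-1 site TGANTCA was in 2 member windows (4.35%, against 6.99%), and in none of the member windows with a peak against 4.62%. An interferon-stimulated element (GAAA, any 2 bases, GAAA) was in 5 member windows (10.9%, against 3.35%), those of Psmb3, Psmd4, Psmd9, Psme1 and Psmg4, and in none of the immunoproteasome genes. With a peak, its shares were 8.11% against 2.45%. A YY1 site (AAGATGGCG) was in 2 member windows (4.35%, against 1.83%), both with a peak (5.41% against 3.45%). A nuclear respiratory factor 1 site was in 2 member windows (4.35%, against 1.33%), both with a peak (5.41% against 2.51%). An NF-kappa B site was in no member window, against 0.16% of all and 0.243% of those with a peak. The antioxidant element core and the AP-1 site can overlap, as can the GC box and other GC-rich motifs. These are matches of letters in a fixed window, and no binding was measured.

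Most genes that work with the proteasome also had end peaks. Of 12 partners outside the naming rule, 11 were matched and 9 had an end peak in all 4 libraries, where 43.9% of all protein-coding genes had one. Zfand5, which encodes a proteasome activator, scored 85, 108, 130 and 135, and Adrm1, the gene of a ubiquitin receptor of the regulatory particle, 46, 75, 66 and 69. Uchl5, the gene of a deubiquitinase of that particle, scored 45, 72, 61 and 77. Psmf1, the gene of the inhibitor PI31, had no end peak and only internal ones of 12 at 25000 and 19 at 100000 cells, and Ecpas had only internal peaks (9, 14, 19 and 19).

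Among 10 regulator genes, 9 had an end peak in all 4 libraries. Nfe2l2 scored 91, 75, 81 and 105 and Nfe2l1 45, 99, 85 and 103. Ddi2, the gene of the protease that activates NFE2L1, had weak peaks of 9, 8, 9 and 17, and Bach2 had only internal peaks (20, 19, 26 and 33). All 14 ubiquitin and shuttling genes had an end peak in all 4 libraries, led by Uba6 (79, 79, 76 and 86), a ubiquitin-activating enzyme gene, and Vcp (61, 85, 63 and 71), which encodes the segregase p97.

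The members were most often lowest in the library from 25000 cells. Of the 40 members with an end peak in all 4 libraries, 21 (52.5%) had their lowest percentile at 25000 cells and 3 (7.5%) at 100000 cells, compared with 41% and 14.9% of all 9610 genes. In all, 27 of them (67.5%) were in the upper part of the list, at or above the 50th percentile, in all 4 libraries, against 74.3% of all genes. Each cell number has a single library, so that a shift with cell number and one between libraries cannot be told apart.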

How the data were processed

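Accessible chromatin was measured by ATAC-seq in 4 NMuMG libraries, which differ in the cell number that their titles give. For each library the authors deposited a list of peak positions, each with a score in whole numbers. The submitters' processing notes name Bowtie 0.12.8, Picard 1.107, bedtools 2.17.0, cutadapt and SAMtools, and the build mm10. How the score was computed, the settings of the peak caller and any shift for Tn5 were not given in the sources used.

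Genes came from RefSeq's table for GRCm38.p6, whose chromosomes are those of mm10. Starts, strands and promoter sequences came from a RefSeq promoter table of that assembly. Peaks were assigned with Python 3.11.15 and pandas 2.3.3 by an overlap of at least 1 bp with 1 kb around a gene end. Ranks are midpoint percentiles within a list. The overlap functions were tested on constructed peaks. No test was made, since each cell number has 1 library. The members, lists and motifs were chosen with earlier results of these data known. Values are given for all immunoproteasome, thymus and testis genes, genes without an end peak in all 4 libraries, genes whose peak is nearer to a neighbour, and the 2 highest and 2 lowest of each other class. For the other lists, they are given for the 2 highest and for those without an end peak in all 4 libraries. Others named were chosen after their values were seen. Some genes of the marker and partner lists are not reported here.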

Additional observations from a re-analysis of the deposited data

How the results depend on the processing

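The count of 40 members with an end peak in all 4 libraries stayed at 40 with windows of 500 bp. It was 42 with windows of 2 kb (Psmb7 and Psmb10 added) and 39 with lists of equal length, kept by score. It was 31 with peaks nearest to the member and 29 with peaks at or above the median score of their list. With listed starts only it was 35 of the 42 members that have one. Psmb1, Psmb2, Psmc3, Psmd3, Psmd7 and Psmg2 dropped out there for want of a listed start, and Psma6 was gained. Leaving out each library gave 40 to 42. Shares of all genes are given above for listed starts and for the median score, and not for the other settings. The 44 members with a peak in or beside the gene were 30 with peaks at or above the median score, 42 with lists of equal length, and 44 to 45 without each library. Members with no peak in any library numbered 4 in every setting run except the median score, where they were 7. The members' median percentile, over those with an end peak in each library, was 70% in the whole list and 52.7% among gene-end peaks alone, by construction, since gene-end peaks have higher scores. No paired analysis was possible because each cell number has 1 library. Depth is unknown, so that an absent peak cannot be told from signal below the threshold of the lists.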

Other observations

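The gene table also holds 6 pseudogenes whose symbols follow the same naming rule: Psma5-ps, Psmb5-ps, Psmb6-ps, Psmb6-ps2, Psmb7-ps1 and Psmb7-ps2. None of them had a listed peak inside its span or within 1 kb of it in any of the 4 libraries. Their parent genes differ, since Psma5 and Psmb6 had an end peak in all 4 libraries, Psmb7 in 3 and Psmb5 in none. How the authors placed reads that match both a gene and its copy is not stated.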
